A study of Gasterosteus aculeatus with 79 samples.

Results

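The genes described here are 150 of the 22456 genes counted in the brains of male threespined stickleback, and each was picked because its level moved in parallel in the diencephalon and the telencephalon of the same males. Levels were counts scaled to library size (CPM, counts divided by the library's sum over gene rows and given per 1e6), set on the scale log2(CPM + 1). The deviation of a male is his level minus the mean of the libraries of his group in that region, so group differences are taken out. The 150 were chosen by the measured Pearson r between diencephalon and telencephalon deviations over the 39 males with a library of each region, among the 13682 genes with a mean of at least 5 CPM in both regions. Since r chose the members, r and whatever follows from it are given as a description, with no test.

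The study asked how brain gene expression changes as males become fathers. Wild-caught males from Putah Creek, a freshwater population in California, were kept in separate tanks, and the 40 sampled males fall into 8 groups of 5. The 25 experimental males had a nest but had not mated (nest, 9am), had eggs at day 4 after fertilization (eggs, 9am), or were sampled on day 5 during early, mid or late hatching (9am, 1pm and 5pm). The 15 control males were reproductively mature, had no nest, and 5 were taken at each of 9am, 1pm and 5pm There are 39 diencephalon and 40 telencephalon libraries, as control male 94 of the 1pm group has a telencephalon library only. Each library is 1 region of 1 wild fish, so males are the replicates.

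As background, the telencephalon and the diencephalon of a fish lie next to each other in the forebrain and hold different neurons, and both contain nodes of the network that serves social behavior. RNA from a dissected region is a sum over its neurons, glia, immune cells and vessels. A gene that differs between individuals can do so in every tissue that expresses it, or in a single cell type or region. In such tissue, fewer cells of a type and less RNA per cell cannot be told apart.

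Libraries held 16025932 to 37371744 counts on genes in diencephalon and 15839679 to 29785260 in telencephalon. Reads that fell outside genes made up 43.1 to 52.8% of the reads on or outside genes in diencephalon and 43.5 to 50.3% in telencephalon. Summed markers of pituitary ranged from 2.41 to 4880 CPM in diencephalon and from 0.836 to 18600 CPM in telencephalon, and did not move together in the regions of a male (r = -0.03 over 39 males). Summed markers of microglia and leukocytes, cells of the immune system, ranged from 82.1 to 1230 CPM in diencephalon and from 105 to 1550 CPM in telencephalon, and did move together (r = 0.85). No marker of neurons, endothelium, red cells, choroid plexus or ependyma carried a name in the tables used here, so those cell types were not checked.

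Among the 150 members r ran between 0.9106 and 0.9921, with a median of 0.941, against a median of 0.396 in the other 13532 genes. The histogram of r has no separate peak at its upper end. The rule cut through a continuous tail, in which 184 genes had r of 0.9 or more and 51 had r of 0.95 or more. Just inside the cutoff were ENSGACG00000008340 (r = 0.9113), ENSGACG00000013953 (0.9107) and mmp13b (0.9106), and just outside it slc47a1 (2 of 3) (0.9104), ENSGACG00000007589 (0.9104) and ENSGACG00000013642 (0.9103).

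**Figure D1:**
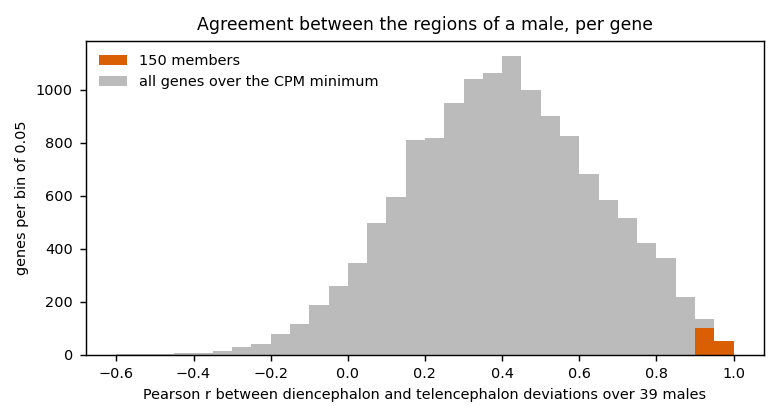
Number of genes per bin of 0.05 in r between diencephalon and telencephalon deviations over 39 males, for all 13682 genes over the CPM minimum (grey) and the 150 members (orange). The members are the upper end of a single distribution and lie between 0.9106 and 0.9921.

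The members differed far more between males than other genes did. The SD of their deviations had a median of 0.638 log2 units in diencephalon and 0.631 in telencephalon, against 0.171 and 0.177 in the other genes. A high r needs spread between males, so the rule favours this. The difference between the deviations of the regions of a male, by contrast, had an SD with a median of 0.216 log2 units in members and 0.193 in the other genes. Telencephalon deviations changed by 0.940 log2 units per unit in diencephalon (median slope), with quartiles of 0.889 and 1.02, against a median of 0.406 in the other genes. Levels were ordinary, with a median of 27.8 CPM in diencephalon and 25.2 CPM in telencephalon, against 32.9 and 33.1 CPM in the other genes. From the lowest to the highest male, the 140 members with no male at 0 spanned 2.16-fold to 827-fold in diencephalon, with a median of 6.87-fold.

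The highest r, 0.9921, belonged to ENSGACG00000015642, which has no name in the tables used here. Its lowest, median and highest levels were 0.220, 89.0 and 182 CPM in diencephalon and 0.334, 47.6 and 153 CPM in telencephalon. In 6 males it stood between 0.220 and 0.707 CPM in diencephalon and between 0.334 and 0.877 CPM in telencephalon. In the other 33 males it stood between 30.4 and 182 CPM and between 22.8 and 153 CPM. No male lay between those ranges in either region, and within the 33 males the levels of the regions still moved together (r = 0.887). The 6 low males came from 5 groups, 1 each from nest, early hatching, mid hatching and control 9am and 2 from control 5pm

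ENSGACG00000007546 (r = 0.9916) fell into 3 ranges. It was between 0 and 0.471 CPM in diencephalon and 0 and 0.60 CPM in telencephalon in 15 males. In the next 12 males it lay between 8.83 and 15.0 CPM in diencephalon and between 8.03 and 17.5 CPM in telencephalon. The highest 12 males had 16.1 to 34.9 CPM in diencephalon and 24.2 to 36.2 CPM in telencephalon. The lowest step is wide and clear in both regions, while the upper step is narrow in diencephalon.

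ENSGACG00000001137 was close to 0 in most males. In 32 males it had 0 to 1.26 CPM in diencephalon and 0 to 4.03 CPM in telencephalon, and in 15 males it had 3 counts or fewer in both regions. In 7 males it had 21.3 to 40.3 CPM in diencephalon and 28.9 to 39.2 CPM in telencephalon. Those 7 came 1 each from 7 of the 8 groups, all but control 5pm The plot of 4 members by group shows those 7 groups with 1 high male each and control 5pm with none.

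Near absence in some males was seen in other members as well. ENSGACG00000008242 had 0 to 0.223 CPM in diencephalon and 0 to 0.0929 CPM in telencephalon in 7 males, and 7.86 to 30.3 CPM and 8.49 to 37.1 CPM in the other 32. For zgc:112285, 24 males had 0 to 1.57 CPM in diencephalon and 0 to 0.690 CPM in telencephalon, and 15 males had 8.90 to 39.8 CPM and 9.02 to 27.1 CPM. ENSGACG00000016042 had 14 males between 0.0441 and 1.06 CPM in diencephalon and between 0 and 1.60 CPM in telencephalon, 18 males between 5.09 and 12.7 CPM and between 5.85 and 9.91 CPM, and 7 males between 17.1 and 20.6 CPM and between 14.5 and 21.4 CPM. In all, 11 members (7.33%) had at least 1 male at 3 counts or fewer in both regions, against 12 of the other genes (0.0887%), and 5 members had 3 or more such males. A gene near 0 in both regions of some males, with a mean of at least 5 CPM, has wide spread shared by the regions. The rule favours such spread, so these shares are tied to the rule and describe the members only. Counts of 3 or fewer cannot tell absence from a level under 3 counts per library.

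**Figure D2:**
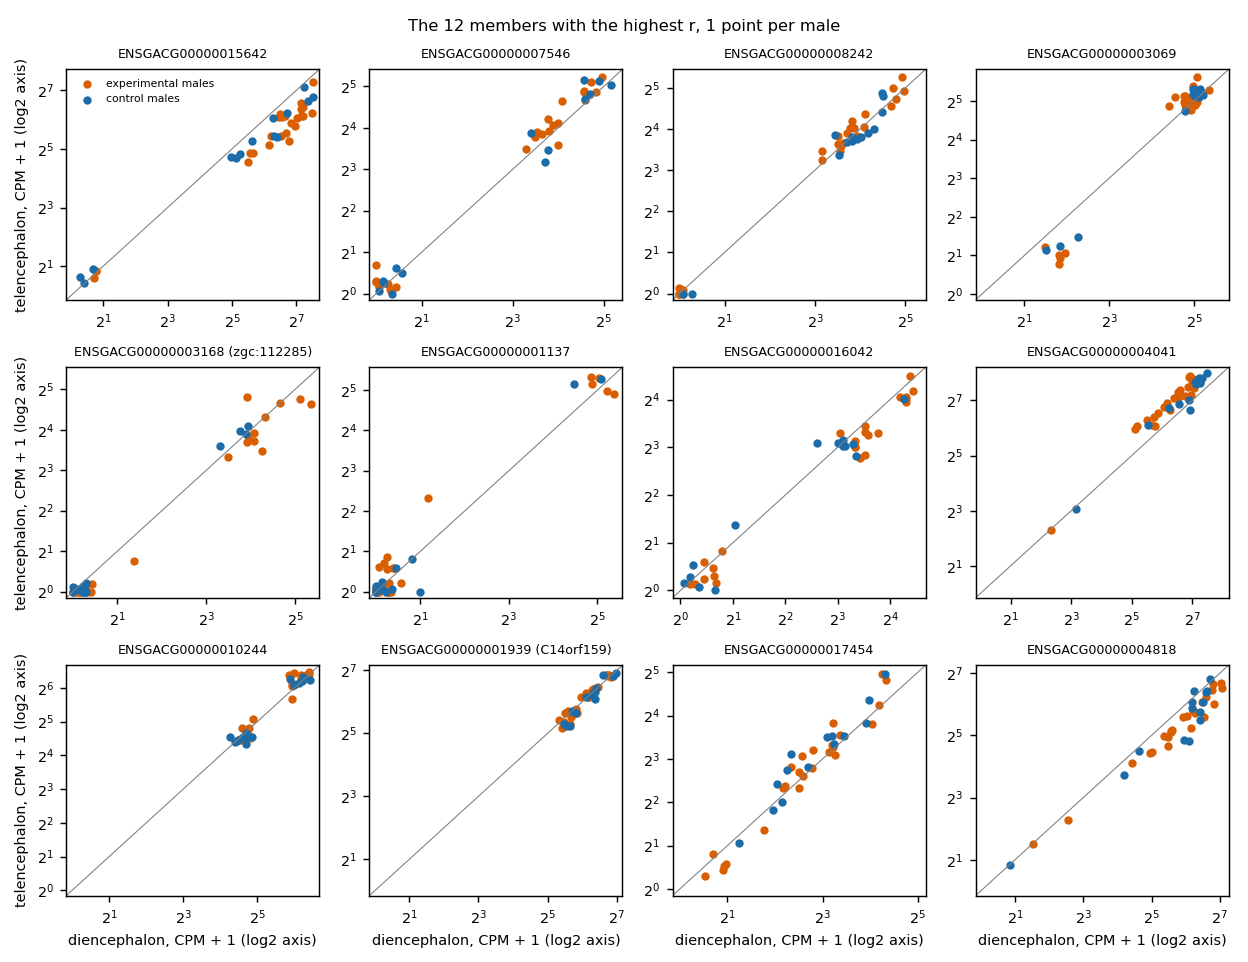
Telencephalon level against diencephalon level (CPM + 1, log2 axes) for the 12 members with the highest r, 1 point per male (25 experimental and 14 control males), with the line of equal levels in grey. In most panels males fall into 2 or 3 separate patches along the line, and experimental and control males are found in each of the larger patches.

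In other members the steps were smaller. ENSGACG00000010244 had 18.1 to 28.4 CPM in diencephalon and 19.2 to 32.4 CPM in telencephalon in 19 males, and 56.4 to 84.6 CPM and 50.4 to 87.8 CPM in the other 20. C14orf159 had 14 males at 39.0 to 56.8 CPM in diencephalon and 35.2 to 53.9 CPM in telencephalon. Another 15 males had 61.7 to 86.1 CPM and 67.8 to 87.2 CPM, and 10 males had 96.3 to 124 CPM and 110 to 119 CPM. The 3 ranges of C14orf159 lay close together in diencephalon, and the way ranges were drawn requires that they do not overlap. Its largest gap between neighbouring males was 0.281 log2 units in mean level, against 0.833 in ENSGACG00000010244.

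ENSGACG00000003069 had 1.78 to 3.83 CPM in diencephalon and 0.711 to 1.77 CPM in telencephalon in 8 males, and 20.4 to 39.6 CPM and 25.6 to 48.2 CPM in 31. ENSGACG00000004818 had 3 males at 0.792 to 4.90 CPM in diencephalon and 0.777 to 3.80 CPM in telencephalon, 5 males at 17.2 to 31.4 CPM and 12.3 to 21.8 CPM, and 31 males at 40.1 to 132 CPM and 24.5 to 112 CPM. ENSGACG00000017454 had 6 males at 0.437 to 1.37 CPM in diencephalon and 0.224 to 1.08 CPM in telencephalon, with the other 33 spread up to 19.2 and 30.3 CPM. ENSGACG00000004041 alone among the 12 highest had no step of at least 0.25 log2 units with 3 or more males on either side. It ran between 4.06 and 177 CPM in diencephalon and between 3.88 and 256 CPM in telencephalon. Control 5pm male 97 had 8 CPM in diencephalon and 7.32 CPM in telencephalon. The other males of his group had 136 to 177 CPM and 192 to 256 CPM.

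To describe the whole set in the same way, males were ordered by the mean of their levels in both regions, and a break was counted where every male above it exceeded every male below it in each region, with at least 3 males on either side. At least 1 break was found in 132 members (88%) and in 788 of the other genes (5.82%). With breaks of at least 0.25 log2 units that leave 3 or more males in each range, 102 members (68%) had 2 or more ranges, against 1.81% of the other genes. There were 78 members with 2 ranges and 24 with 3 ranges. The largest gap between neighbouring males reached 1 log2 unit in 29 members (19.3%) and in 6 of the other genes (0.0443%). Parallel levels with wide spread make breaks more frequent, so these shares are tied to the rule and describe the members only.

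The ranges of males were spread over the groups of the study. The rule used deviations from group means and favours spread within groups, so this is frequent by the rule. The other genes were not described in this way. In the 102 members with 2 or more ranges, the lowest range held a median of 17 males from 8 groups and the highest a median of 15 males from 8 groups. In 99 of the 102 both the lowest and the highest range included experimental and control males. Within a range of 10 or more males, of which there were 151, the levels of the regions had a median r of 0.666, with extremes of -0.241 and 0.978. Ranges thus differed in whether the regions also moved together inside them.

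**Figure D3:**
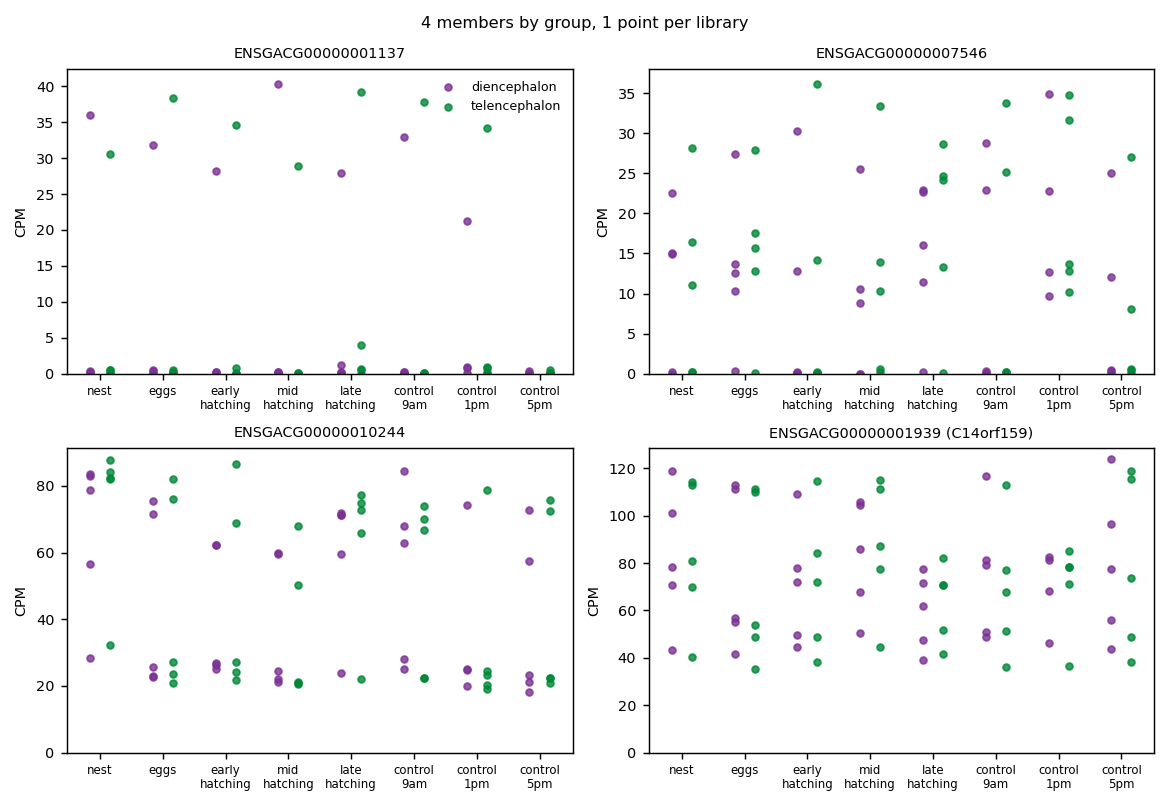
CPM of 4 members in each library by group, experimental stages left and controls right, with diencephalon and telencephalon side by side (5 males per group, 4 for diencephalon of control 1pm). High and low males occur within single groups, as for ENSGACG00000010244, where 19 of the 39 males with both libraries lie at 32.4 CPM or below and 20 at 50.4 CPM or above.

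Only 18 of the 150 members have a symbol in the tables used here. Symbols come from the study's list of genes that it called between conditions, which names 410 of the 13682 genes, so the named members are a sample picked on another criterion. As read here, that list holds 21 of the 150 members and 486 of the 13682 genes. The paper counts more genes than this as differentially expressed, so the list as read here may be incomplete. The list gives the positions of those 21, on 16 linkage groups and 1 scaffold. Among 24 lists of pathways and cell type markers, 2 held a member. Several lists, such as those of sterol synthesis, haemoglobin, neurons and endothelium, had 0 genes over the CPM minimum and could not hold one. The list of large immune families, from which 5 genes passed the CPM minimum, held 2 copies of NUGGC, and the list of xenobiotic metabolism, also with 5, held cyp3a65 (1 of 3). No member was among the named markers of microglia, oligodendrocytes, pituitary, photoreceptors or muscle. Only 5, 4, 7, 2 and 4 of these markers, in that order, passed the CPM minimum, too few to read their absence as a result. Members without a symbol could not be matched to any list.

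NUGGC is a nuclear GTPase known from germinal center B cells of mammals. Its copies NUGGC (2 of 3) and NUGGC (3 of 3) lie on linkage group XI at 10224053 to 10228506 and 10229188 to 10233182 of the Ensembl release 75 annotation, 682 bases apart. NUGGC (3 of 3) had 1.23, 49.3 and 120 CPM (lowest, median, highest) in diencephalon and 1.53, 51.9 and 154 CPM in telencephalon. NUGGC (2 of 3) had 0.284, 17.9 and 49.1 CPM in diencephalon and 0, 21.9 and 65.9 CPM in telencephalon. The copies varied together over males (r = 0.974), and similar copies of a gene can exchange reads in counting, so their separate values are uncertain. Neither showed a step.

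The cytochrome P450 cyp3a65 (1 of 3), of a family that oxidises foreign compounds and steroids, had 3.21, 10.6 and 29.0 CPM in diencephalon and 3.60, 14.3 and 42.3 CPM in telencephalon without a step. Members also included 2 genes of DNA repair. The checkpoint kinase atr had 13 males at 21.1 to 32.1 CPM in diencephalon and 19.95 to 27.5 CPM in telencephalon, and 26 males at 36.4 to 121 CPM and 35.8 to 84.1 CPM. RDM1, with a RAD52 motif, had 6.42, 32.8 and 97.0 CPM in diencephalon and 3.73, 20.8 and 89.5 CPM in telencephalon.

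Several named members act outside the cell or at its surface. The collagenase mmp13b had 24 males at 1.11 to 16.2 CPM in diencephalon and 0.229 to 6.93 CPM in telencephalon, and 15 males at 16.7 to 59.7 CPM and 23.1 to 57.5 CPM. The endopeptidase phex, known in mammals for phosphate balance and bone, had 27 males at 0.790 to 13.1 CPM in diencephalon and 1.86 to 17.3 CPM in telencephalon, and 12 males at 36.0 to 60.9 CPM and 39.3 to 55.8 CPM. The axon guidance family member sema4ba had 26 males at 13.7 to 22.5 CPM in diencephalon and 10.0 to 18.9 CPM in telencephalon, and 13 males at 24.5 to 38.2 CPM and 25.1 to 46.4 CPM. MAMDC4 had 13 males at 1.85 to 5.16 CPM in diencephalon and 1.96 to 6.69 CPM in telencephalon, and 26 at 12.0 to 27.3 CPM and 13.9 to 33.4 CPM. Ranges were drawn so that the same males are on the high side in both regions, so this holds by construction. In mmp13b the ranges nearly touched in diencephalon, at 16.2 and 16.7 CPM. The value of 16.2 CPM is that of control male 12, who had 0.343 CPM in telencephalon.

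Other named members ranged from step-like to gradual. PCYOX1L, related to an enzyme that breaks down prenylated cysteine, had 32 males at 23.6 to 39.4 CPM in diencephalon and 26.5 to 42.9 CPM in telencephalon, and 7 males at 113 to 235 CPM and 114 to 251 CPM. RIN2 (2 of 2), of a family that regulates Rab GTPases, had 30 males at 9.03 to 18.1 CPM in diencephalon and 3.99 to 9.51 CPM in telencephalon, and 9 males at 39.1 to 50.8 CPM and 14.5 to 32.5 CPM. The peroxisomal protease tysnd1 had 29 males at 9.02 to 23.9 CPM in diencephalon and 9.82 to 19.7 CPM in telencephalon, and 10 males at 27.6 to 43.5 CPM and 24.7 to 33.8 CPM. CGREF1 had 17 males at 1.86 to 35.8 CPM in diencephalon and 1.29 to 31.8 CPM in telencephalon, and 22 males at 43.2 to 75.6 CPM and 38.2 to 56.6 CPM. These genes lie on linkage groups VII, IX, VI and II. ITM2A, a membrane protein, was by far the most abundant named member and gradual, with 496, 820 and 1267 CPM in diencephalon and 471, 746 and 1101 CPM in telencephalon. C19orf25, at 8.27 to 39.8 CPM in diencephalon and 9.10 to 31.5 CPM in telencephalon, and the intraflagellar transport gene ift80, at 31.8 to 74.0 CPM in diencephalon and 37.3 to 92.6 CPM in telencephalon, had no step either.

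The spread over males itself varied widely among members. By the SD of the mean of both regions, the 5 members with the smallest spread were ENSGACG00000010434, ENSGACG00000017878, ENSGACG00000001170, ENSGACG00000013824 and ENSGACG00000004189. Over these 5 the SD of deviations was 0.189 to 0.308 log2 units in diencephalon and 0.224 to 0.274 in telencephalon, each above the median of the other genes in that region. ENSGACG00000017878 had 36 males at 26.4 to 41.3 CPM in diencephalon and 23.4 to 37.2 CPM in telencephalon, and 3 males at 56.5 to 60.9 CPM and 55.7 to 58.2 CPM. By the same measure the largest spread belonged to ENSGACG00000015642, ENSGACG00000007546, ENSGACG00000001137, ENSGACG00000015787 and ENSGACG00000001751, with 1.82 to 2.09 log2 units in diencephalon and 1.82 to 1.97 in telencephalon. In telencephalon alone mmp13b had a larger SD, of 2.03.

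Although each member moved in parallel in the regions of a male, the members did not move with one another. Over the 11175 pairs of members, r between their deviations (mean of both regions) had a median of 0.007, and the absolute value had a median of 0.131. It stayed below 0.5 in 98.8% of pairs. The set is therefore called by its rule and is not a group of genes that rise and fall together. For 37 of the 39 males there was at least 1 member in which that male was the farthest from his group mean, and no male was so for more than 11 members.

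**Figure D4:**
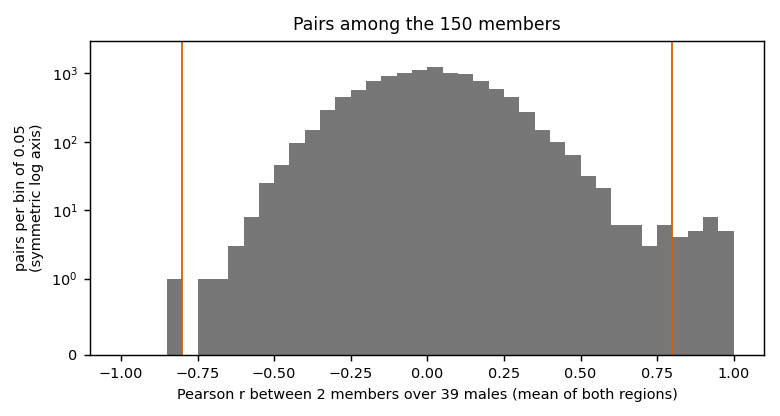
Number of pairs among the 150 members per bin of 0.05 in r over 39 males (mean of the deviations of both regions, symmetric log axis), with lines at -0.8 and 0.8. Most of the 11175 pairs lie near 0, 22 pairs reach 0.8 and 1 pair lies below -0.8.

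A few members did form groups. Of the 11175 pairs, 22 had r of 0.8 or more, which joined 26 members into 10 groups. The largest held 5 members, ENSGACG00000007449, ENSGACG00000007447, ENSGACG00000007454, ENSGACG00000001182 and ENSGACG00000007511, and the lowest r inside it was 0.731. ENSGACG00000007449 had 1.18, 60.9 and 138 CPM in diencephalon and 2.26, 87.1 and 191 CPM in telencephalon, ENSGACG00000007447 had 1.75, 29.9 and 84.6 CPM and 1.78, 30.7 and 102 CPM, and ENSGACG00000007454 had 0.379, 12.9 and 27.9 CPM and 1.04, 14.6 and 36.5 CPM. A second group of 4 held ENSGACG00000001466, ENSGACG00000012958, ENSGACG00000010668 and ENSGACG00000002379. In ENSGACG00000001466, levels were 12.4, 52.1 and 344 CPM in diencephalon and 23.3, 89.9 and 435 CPM in telencephalon, and in ENSGACG00000012958 they were 32.1, 66.9 and 125 CPM and 33.8, 60.4 and 121 CPM. ENSGACG00000010668 was the lowest, with 2.92, 8.13 and 43.8 CPM in diencephalon and 3.25, 9.30 and 36.2 CPM in telencephalon. The lowest r inside this group was 0.750.

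The third group was step-like. ENSGACG00000019826 had 13 males at 2.40 to 6.46 CPM in diencephalon and 2.55 to 4.29 CPM in telencephalon, and 26 males at 15.5 to 85.9 CPM and 15.2 to 79.1 CPM. ENSGACG00000000155 (r = 0.980 with it) had 1.42 to 3.404 CPM and 0.793 to 2.63 CPM in 13 males, and 7.80 to 40.3 CPM and 7.34 to 30.1 CPM in 26. The 26 high males of these genes were the same 26 males. All 22 high males of ENSGACG00000001742, the third gene of the group, were among them.

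In a linked pair, ENSGACG00000004265 and ENSGACG00000004299 (r = 0.936), the same 5 males were high. ENSGACG00000004265 had 51.6 to 95.7 CPM in diencephalon and 51.2 to 70.3 CPM in telencephalon in those 5, and 1.43 to 5.48 CPM and 0.460 to 5.20 CPM in the other 34. The only pair below -0.8 was ENSGACG00000015787 with ENSGACG00000001675 (r = -0.850). There the males with the most of one tended to have the least of the other. ENSGACG00000015787 ran between 0 and 135 CPM in diencephalon and 0 and 210 CPM in telencephalon, and ENSGACG00000001675 between 0.356 and 15.7 CPM and 0.60 and 18.2 CPM.

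Across the 150 members, the diencephalon profile of each of the 39 males was most like his own telencephalon profile. The r over members within a male had a median of 0.951 and a highest value of 0.978. Between different males r had a median of -0.017 and a highest value of 0.552. The rule used this pairing, so these values were largely set by the choice of members and do not check the labels. Control male 12 of the 1pm group stood apart, with r = 0.644, while the next lowest male had 0.925. In his libraries ENSGACG00000001751 had 45.4 CPM in diencephalon and 1.18 CPM in telencephalon, and mmp13b had 16.2 and 0.343 CPM. Without this male, 136 of the 150 members were still among the 150, with a median r of 0.945.

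In 8 of the 5850 combinations of a member and a male, the difference between the regions lay 2 log2 units or more from that gene's median difference. These 8 were in 4 members and 7 males, and male 12 accounts for 2 of them, so 6 in 2 members and 6 males are left without him. ENSGACG00000015787 accounted for 4 of them, including male 92 with 0.770 CPM in diencephalon and 12.3 CPM in telencephalon.

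Sequencing lanes were looked at because the libraries of a male share the first index in 39 of 39 males and the same lane number in 16 males. The study used more lanes than there are lane numbers, so an equal number need not mean the same lane. In 8 males the lane numbers differed, and in 15 both libraries carry the letter M, read here as several lanes. All of these males entered the rule, so a high r within some of them is no separate evidence on lanes and no replication within a treatment. In the 8 males on different lanes, 127 of 150 members had r of 0.9 or more and the lowest had 0.087. In the 25 experimental males alone, 141 members had r of 0.9 or more and the lowest had 0.545. In the 14 control males alone 122 did and the lowest had 0.472. The median r of all genes was 0.378 in the 8 males on different lanes, 0.385 in the experimental and 0.478 in the control males. The share of reads outside genes had an absolute r of 0.5 or more over males with 1 member (0.667%), against 9.59% of all 13682 genes. Summed markers of microglia and leukocytes had such an r with 7 members (4.67%), against 10.3% of all genes. Radial glia had only 1 named marker, near the floor, with a median of 0.321 CPM in diencephalon and 0.195 CPM in telencephalon. It had such an r with 3 members (2%, against 1% of all genes). Photoreceptor markers had one with 2 (1.33%, against 1.18%) and oligodendrocyte markers with 1 (0.667%, against 0.789%). Library depth, pituitary and muscle markers had none with any member, against 0.417%, 0.592% and 0.504% of all genes. The part of these measures in the members' levels was not tested.

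The rule used no difference between groups, but it picked genes with wide spread within groups, which widens the errors of these comparisons, so the number of members called depends in part on the rule. All 150 members passed the filter of 0.5 CPM in at least 5 libraries in each fit. Lane listing follows treatment. The 15 of 15 control males and 1 of 25 experimental males (late hatching male 65) were listed as M, read as several lanes. The other 24 were listed with single lane numbers. Stage and lane listing can therefore not be told apart where nest, eggs, early or mid hatching males are compared with control. In late hatching against control only male 65 separates them. For each stage against its control of the same time of day, called means an adjusted p under 0.01 (edgeR quasi-likelihood test, Benjamini-Hochberg over all genes tested). In diencephalon 1 of 150 members was called at 1 or more stages, against 2.89% of all 18609 genes tested. In telencephalon 0 of 150 were called, against 0.0163% of 18397 genes. At unadjusted p under 0.05, 7 to 18 members per stage passed in diencephalon and 7 to 15 in telencephalon. These are 4.67 to 12% of members against 6.29 to 28.3% of all genes in diencephalon, and 4.67 to 10% against 5.57 to 14.4% in telencephalon. DESeq2 called 1 member in each region, against 6.71% of all genes in diencephalon and 0.723% in telencephalon. The study's own list of called genes, made with another test, holds more members. As read here, it has 21 of the 150 members and 486 of the 13682 genes over the CPM minimum. The paper counts more differentially expressed genes than this, so these numbers may not be the study's totals. By its description that list also covers genes called after a territorial challenge. Why the list and the calls here differ was not tested.

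For the mean of the 5 stages against control, 1 of 150 members was called in diencephalon (background 4.84% of genes) and 0 in telencephalon (background 0.609%). In telencephalon 16 members (10.7%) had an unadjusted p under 0.05, against 18.5% of all genes, and DESeq2 called 1, against 1.44% of all genes. The estimates for members were less precise than those for other genes. In diencephalon the absolute mean stage difference had a median of 0.200 log2 units in members and 0.128 over all genes, with median standard errors of 0.252 and 0.0852.

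The member called was ENSGACG00000011017, which has no name in the tables used here and is not on the study's list of called genes as read here. That list may be incomplete, so its absence does not show that the study did not call this gene. In diencephalon of late hatching males it had 24.4, 29.0, 31.2, 34.7 and 57.2 CPM, against 40.2, 65.9, 86.4, 98.9 and 102 CPM in control 5pm males. The ranges overlapped through 1 late hatching male and 1 control male. That late hatching male, at 57.2 CPM, is male 65, the only experimental male with the lane listing of the controls. It fell by 1.17 ± 0.29 log2 units (SE, n = 5 and 5, edgeR adjusted p = 0.00955). Over all 5 stages it fell by 0.70 ± 0.16 log2 units (edgeR adjusted p = 0.00402).

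With the lane listing as a term, a setting chosen after seeing the data that rests on male 65 alone, the differences were -0.46 ± 0.48 log2 units for late hatching (edgeR adjusted p = 0.774) and 0.21 ± 0.47 over all stages (edgeR adjusted p = 0.996).

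ENSGACG00000011017 itself fell into 2 ranges of males. In 8 males it had 24.2 to 40.2 CPM in diencephalon and 28.1 to 49.1 CPM in telencephalon, and in 31 males 47.6 to 107 CPM and 55.6 to 113 CPM. The 8 low males were 4 late hatching, 2 early hatching, 1 control 1pm and 1 control 5pm male.

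In the other stages the diencephalon means of ENSGACG00000011017 were 59.4 ± 18.2 CPM in nest, 70.1 ± 14.2 CPM in eggs and 44.9 ± 17.7 CPM in early hatching males, against 89.1 ± 9.3 CPM in control 9am males (SD, n = 5 each). Mid hatching males had 62.4 ± 6.2 CPM (n = 5), against 83.0 ± 36.2 CPM in control 1pm males (n = 4). In telencephalon, late hatching males had 31.4, 39.6, 41.5, 49.1 and 72.3 CPM, against 42.3, 64.5, 98.0, 104 and 104 CPM in control 5pm males. The difference there was -0.81 ± 0.29 log2 units (edgeR adjusted p = 0.229), and that over all stages -0.53 ± 0.16 (edgeR adjusted p = 0.0559). The late hatching call was lost when any of 26 of the 39 males was left out (adjusted p at most 0.036), and that over all stages without control male 39 or 69. With the share of reads outside genes in the model the adjusted p was 0.359 for late hatching and 0.232 over all stages, and the part of that share in the difference was not tested. Over all alternative settings the adjusted p ran between 0.00127 and 0.774 for late hatching, and between 0.000526 and 0.996 over all stages.

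**Figure D5:**
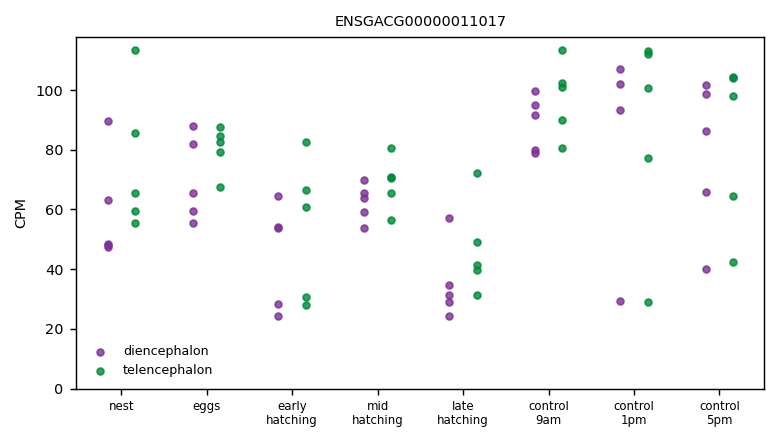
CPM of ENSGACG00000011017 in each library by group, experimental stages left and controls right, diencephalon and telencephalon side by side. In diencephalon 4 of 5 late hatching males lie at 34.7 CPM or below, and control 5pm males lie between 40.2 and 102 CPM.

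Time of day among controls gave no call among members. For control 5pm against control 9am, 0 of 150 were called by edgeR in diencephalon (background 0.0161%) and 0 in telencephalon (background 0.00544%). At unadjusted p under 0.05 there were 13 members (8.67%) in diencephalon, against 13.4% of all genes, and 10 (6.67%) in telencephalon, against 10.9%. DESeq2 called 1 member in diencephalon (0.124% of all genes) and 0 in telencephalon (0.114%). The mean stage change differed between regions in 0 members by edgeR (background 0% of 18958 genes), with 0 members at unadjusted p under 0.05, against 8.36% of all genes, and 0 by DESeq2, against 0.164%. With the male as a block, 0 members were called again (background 0.0264%) and 32 (21.3%) had an unadjusted p under 0.05, against 15.2% of all genes. The rule used the same pairing of regions within males as this fit. The SD of the difference between the regions' deviations had a median of 0.216 log2 units in members and 0.193 in other genes. Its part in these shares was not tested.

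Between the regions themselves, 25 of 150 members differed in mean level (edgeR adjusted p under 0.01), against 58.5% of all genes tested. Of these, 17 were higher in diencephalon and 8 lower. When each male served as his own reference, 100 of 150 members were called, against 66.2% of genes. The block takes out the spread between males, which is wide in members by the rule. The part of this in the change from 25 to 100 was not tested. Differences were modest in size, with an absolute value under 0.5 log2 units in 130 of 150 members (86.7%) and in 80.9% of the other genes.

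The lowest p belonged to ENSGACG00000015622, which was abundant. It had 382, 4521 and 6564 CPM (lowest, median, highest) in diencephalon and 186, 1700 and 2270 CPM in telencephalon, and was higher in diencephalon in 39 of 39 males. The difference was 1.43 ± 0.11 log2 units (edgeR adjusted p = 9.09e-19). This value and those of the genes that follow are from the fit without the male as a block, which ignores the pairing. With the block the difference of ENSGACG00000015622 was 1.427 log2 units (edgeR adjusted p = 7.57e-28). ENSGACG00000010917 went the other way, with 2.75, 12.3 and 20.1 CPM in diencephalon and 7.11, 28.3 and 41.5 CPM in telencephalon, and was lower in diencephalon in every one of the 39 males. Its difference was -1.21 ± 0.12 log2 units (edgeR adjusted p = 4.24e-14).

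ENSGACG00000004329 had 20.7, 99.2 and 127 CPM in diencephalon and 14.3, 52.9 and 64.4 CPM in telencephalon (0.91 ± 0.09 log2 units). ENSGACG00000015078 had 168, 329 and 529 CPM in diencephalon and 120, 236 and 334 CPM in telencephalon (0.57 ± 0.07 log2 units). ENSGACG00000008002 had 45.6, 68.2 and 101 CPM in diencephalon and 25.9, 44.2 and 65.6 CPM in telencephalon (0.56 ± 0.07 log2 units). All 3 were higher in diencephalon in 39 of 39 males, with edgeR adjusted p of 7.4e-10 or lower, although the ranges of the regions overlapped over males.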

How the data were processed

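The authors aligned single-end stranded mRNA reads to the repeat masked stickleback genome (Ensembl release 75) with TopHat 2.0.8 and Bowtie and counted them on genes with HTSeq 0.6.1, leaving out reads in several genes. The deposited values are whole-number counts per gene, 1 library per file, without normalization. HTSeq's summary rows, which name no gene, were left out of library sizes, and the share of reads outside genes was taken from them.

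Groups and male numbers came from the labels. Males pair the libraries of the regions because both come from the same animal. The members and the gene lists were chosen with earlier results of these data known. CPM used the sum of gene rows and r a pseudocount of 1. Group contrasts used edgeR 4.0.16 (R 4.3.3) with TMM, a filter of 0.5 CPM in 5 libraries, the quasi-likelihood test, Benjamini-Hochberg adjustment and a threshold of 0.01, with 8 groups per region or all 79 libraries in 1 fit. Scripts were tested on simulated data. DESeq2 1.42.0 and the other alternatives stand in the closing section.

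The text names the 12 members with the highest r, the 12 highest with a symbol, members in a list, those with the 5 largest and 5 smallest SDs, those called (or the 5 lowest p), up to 3 of each linked group of at least 3, neighbours in the annotation and 3 genes either side of the cutoff. Named genes beyond these were chosen after their values were seen. Libraries held 15839679 to 37371744 counts, and 3 counts or fewer were taken as the floor, which covers counting error only.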

Additional observations from a re-analysis of the deposited data

Results flagged for a closer look

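In groups of 4 or 5 males, a male was listed where his gap to the nearest other male took up most of the group's range (Dixon's test at 95%). This was done for the 12 members with the highest r and ENSGACG00000011017, and 52 of 208 combinations of gene, region and group were listed (25%), where chance gives about 1 in 20. The members were selected for wide spread shared by the regions, so such males are frequent by the rule. In 19 cases the same male stood out for the same gene in both regions.

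ENSGACG00000015642 was low in diencephalon at 0.702 CPM in nest male 54, 0.707 CPM in early hatching male 64, 0.619 CPM in mid hatching male 86 and 0.22 CPM in control 9am male 39. In telencephalon the same males had 0.771, 0.793, 0.511 and 0.536 CPM, and eggs male 88 was the lowest of his group at 33.8 CPM.

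ENSGACG00000003069 was low in diencephalon at 2.5 CPM in nest male 78, 2.51 CPM in eggs male 77 and 1.78 CPM in mid hatching male 81. In telencephalon these males had 0.711, 1.02 and 1.31 CPM, and control 1pm male 72 was the lowest of his group at 25.6 CPM. ENSGACG00000007546 was low in late hatching male 32, with 0.227 CPM in diencephalon and 0.0872 CPM in telencephalon, and in eggs male 88 with 0.107 CPM in telencephalon. ENSGACG00000008242 was at 0 CPM in diencephalon of mid hatching male 86, and high at 28.4 CPM in telencephalon of control 9am male 39.

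ENSGACG00000001137 was high in diencephalon at 36 CPM in nest male 70, 31.8 CPM in eggs male 87, 28.2 CPM in early hatching male 64, 40.3 CPM in mid hatching male 86, 27.9 CPM in late hatching male 32 and 33 CPM in control 9am male 69. In telencephalon it was high at 30.6 CPM in male 70, 38.4 CPM in male 87, 34.7 CPM in male 64, 28.9 CPM in male 86, 37.9 CPM in male 69 and 34.2 CPM in control 1pm male 96. Control 5pm male 95 was above his group at only 0.365 CPM in diencephalon and 0.512 CPM in telencephalon.

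zgc:112285 was high in late hatching male 10, at 16 CPM in diencephalon and 12.1 CPM in telencephalon, and in mid hatching male 81 at 27 CPM in telencephalon. ENSGACG00000016042 was low in diencephalon of mid hatching male 80 at 0.205 CPM. ENSGACG00000004041 was low in control 5pm male 97, with 8 CPM in diencephalon and 7.32 CPM in telencephalon. In telencephalon it was also the lowest of the group in late hatching male 10 at 84.5 CPM and in control 1pm male 96 at 99.1 CPM.

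ENSGACG00000010244 was low in late hatching male 15, with 24 CPM in diencephalon and 22 CPM in telencephalon, and in telencephalon of nest male 33 with 32.4 CPM. It was high in telencephalon of control 1pm male 91 at 78.7 CPM, in whom C14orf159 was low at 36.6 CPM. ENSGACG00000004818 was low in nest male 70, with 4.9 CPM in diencephalon and 3.8 CPM in telencephalon. ENSGACG00000011017 was low in control 1pm male 96, with 29.4 CPM in diencephalon and 28.9 CPM in telencephalon.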

How the results depend on the processing

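A single result turned its direction. With listing on several lanes as a term, chosen after seeing the data and resting on male 65, ENSGACG00000011017 differed by 0.214 log2 units over all stages in diencephalon (edgeR adjusted p = 0.996), and no member was called for stages (0) or their mean (0) there. Of the 150 members, 104 to 148 were again among the 150 under 8 of 10 other settings and 136 to 147 when 1 male was left out. With only the 8 males on different single lanes 74 were, and with only the 14 control males 93 were.

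For stages against control in diencephalon (1 member called), the count was 0 with RLE normalization, 0 without a filter on low counts, 0 after adjusting for reads outside genes, 0 with the groups of each contrast fitted alone and 2 at an adjusted p under 0.05. Leaving out 1 male gave 0 to 1. For the mean of the stages in diencephalon (1), the count was 3 with the likelihood ratio test and 4 at an adjusted p under 0.05. DESeq2 called 2 there, against 8.26% of all genes. The count was 0 after adjusting for reads outside genes, and 0 to 2 with 1 male left out. For control 5pm against 9am in diencephalon (0), the likelihood ratio test, an adjusted p under 0.05 and DESeq2 gave 1 each. With DESeq2 that stood against 0.124% of all genes. Shares of all genes are given only for DESeq2 and the block, so counts under the other settings are no result about the members.

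In telencephalon DESeq2 called 1 member for stages (0), against 0.723% of all genes. For the mean of the stages (0), the likelihood ratio test, an adjusted p under 0.05 and DESeq2 (1.44% of all genes) gave 1 each. Leaving out 1 male gave 0 to 1, with 1 without male 16 or 74. Diencephalon against telencephalon (25) gave 40 at an adjusted p under 0.05, 18 to 28 under the other settings without a block and 22 to 26 with 1 male left out. DESeq2 gave 28, against 59.4% of all genes. With the male as replicate block the comparison of regions gave 100, against 66.2% of all genes, and the block left the difference in mean stage change at 0 members. The causes of these changes were not tested.

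Depth limits the members near 0, where 3 counts or fewer do not separate absence from a low level. Wide spread between males gave members larger standard errors than other genes, so a missing call does not show that groups were alike.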
